A study of Mus musculus with 8 samples.

Results

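The comparison described here set the 2 arrays of MCE301 cells kept with sodium butyrate (SB) for 24 h against the 2 arrays of cells kept with it for 12 h, and so covers the second 12 h of the treatment. It took 4 of the 8 arrays of the series by their titles and covered every gene that could be tested, 7340 of the 12393 genes with a probe set of their own. MCE301 is an epithelial line from the colon of mice that carry an SV40 large T-antigen whose activity depends on temperature. All cells of the series received butyrate at 2 mM, for 0, 6, 12 or 24 h, and each time has 2 arrays, replicates 1 and 2. Total RNA was hybridised to an Affymetrix mouse 430A array, whose probe set signals (intensities) were used as deposited. Nothing in the labels ties the 2 arrays of a time to different cultures, and if they share one, the p-values rest on technical spread alone. No array of cells kept for 12 h or 24 h without butyrate was used here, so time in culture and time with butyrate cannot be told apart.

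Butyrate is a short-chain fatty acid made by gut bacteria, an energy source for colonocytes and an inhibitor of histone deacetylases, the enzymes that remove acetyl groups from histones. In the crypts of the colon, cells divide near the base, leave the cell cycle as they move up, and then make the keratins, junctions and transporters of the mature surface. Genes of DNA replication and genes of mitosis are switched on in successive waves of the cell cycle, the first largely through E2F factors and the second through a complex that binds a promoter element named CHR, for cell cycle genes homology region.

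Between 12 h and 24 h many genes of cell division fell. A gene was called when its adjusted p was under 0.05 (limma on log2(signal + 32), Benjamini-Hochberg over the 7340 genes). By this rule 133 genes rose (1.81% of the genes tested) and 263 fell (3.58%). Counts of list members given below stand against these shares. Changes of at least 2-fold were found for 38 of the genes that rose (0.518% of all tested) and for 121 of those that fell (1.65%). Of the 12 largest falls, 8 were genes of mitosis, cytokinesis or their kinases (Bub1, Pbk, Shcbp1, Kif11, Ccna2, Birc5, Aurkb and Top2a), while the 12 largest rises included late cornified envelope genes, a keratin-associated protein, a secreted protease and vimentin. The median change over all genes was 0.01 on the log2 scale.

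For every one of the 396 called genes (5.4% of those tested), both arrays of 24 h lay on one side of both arrays of 12 h, a pattern that 24.9% of all genes showed upwards and 24.6% downwards. With the replicate number as a block, 249 genes rose (3.39%) and 377 fell (5.14%), and all 396 calls were among them. The counts rest on few arrays. Without replicate 1 of 12 h, 66 genes were higher and 143 lower. Without replicate 2 of 12 h the counts were 28 and 77, without replicate 1 of 24 h they were 30 and 131, and without replicate 2 of 24 h they were 26 and 121. With each of these 4 arrays left out in turn, 13 of the 133 and 66 of the 263 genes were called every time. A call is said below to hold without each array when it was one of these. With no filter on low values, which raised the number of genes tested to 12393, 29 genes were higher and 88 lower, and 75 of the 118 named genes that had been called were not called. Of 191 further probe sets of the called genes, 95.8% changed in the same direction, and 0 were called in the opposite one.

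**Figure D1:**
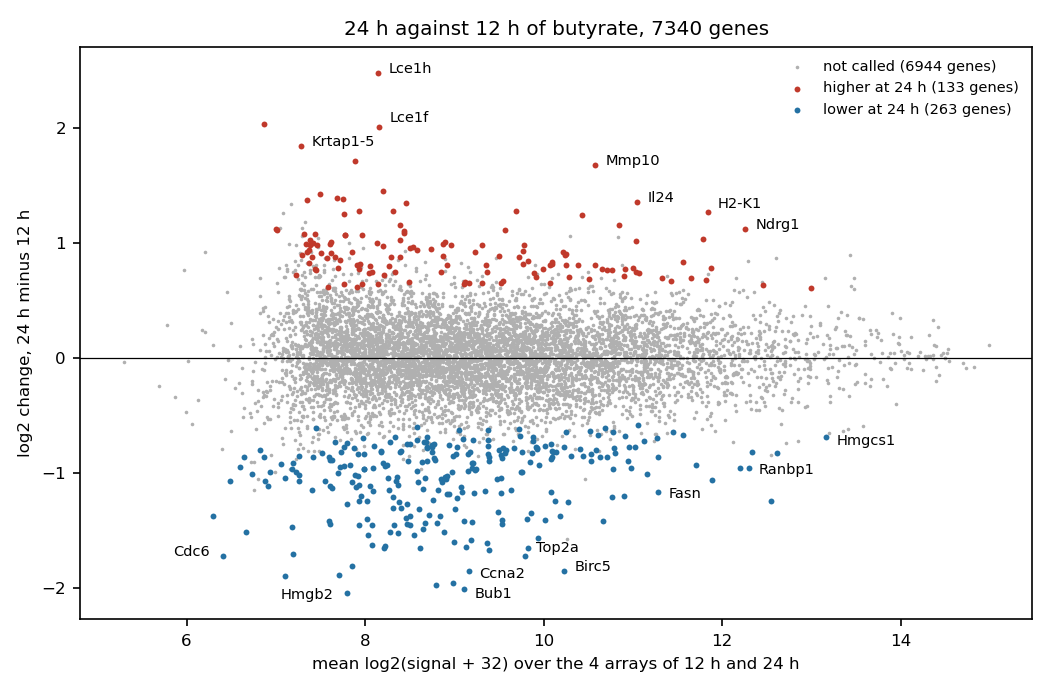
Each point is 1 of the 7340 genes, with the mean of log2(signal + 32) over the 4 arrays of 12 h and 24 h on the horizontal axis and the log2 change from 12 h to 24 h on the vertical axis. The 133 genes called higher (red) and the 263 called lower (blue) are set against the genes not called (grey), and the called falls reach −2.05 (Hmgb2) while the called rises reach 2.47 (Lce1h).

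Among the gene lists, that of mitosis and the G2/M transition had the largest share of falls. Of 58 tested genes of that list, 51 fell, 46 of them by at least 2-fold, and 0 rose, with a median log2 change of −1.33 against 0.01 over all genes. Without replicate 2 of 12 h, 32 of the 58 fell. The calls of 29 members held without each array, and with the replicate block 53 fell. A lower signal in a culture can come from fewer cells in a phase of the cycle or from less RNA per cell, and these arrays cannot tell them apart.

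Among the cyclins, kinases and phosphatases, 12 of 14 fell, with a median of −1.31. Bub1, the kinase that guards attachment of chromosomes to the spindle, had signals of 1070.6 and 1088 at 12 h and 256.2 and 230 at 24 h. The 12 h arrays lay within the range of its 0 h and 6 h signals, 1001 to 1373.7, and both 24 h arrays lay far below it. The fitted change was −2.02 ± 0.16 (SE) on the log2 scale (adjusted p = 0.000399). It was −1.40 at the smallest over the alternatives, and another kept probe set of Bub1 changed by −0.77. Pbk, a mitotic protein kinase, went from 816.1 and 880.6 to 207.8 and 175.1 (adjusted p = 0.000399). Ccna2, cyclin A2 of S phase and early mitosis, had already dropped by 12 h. Its signals were 2891.1 and 3032 at 0 h, 1087.6 and 1033.6 at 12 h, and 296.4 and 243.5 at 24 h, a change from 12 h to 24 h of −1.86 ± 0.16 (adjusted p = 0.000399). Aurkb, the Aurora kinase of the chromosomal passenger complex, fell by 1.82 on the log2 scale and Cdk1, the kinase that drives entry into mitosis, by 1.65. The calls of Bub1, Pbk, Ccna2, Aurkb and Cdk1 held without each array. The members of this group that were not called were the phosphatases Cdc25c (−0.64, adjusted p = 0.0644) and Cdc25b (−0.25, adjusted p = 0.651).

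Of the kinesins and spindle proteins, 17 of 19 fell, with a median of −1.35. Kif11, the motor that pushes spindle poles apart, had 276.1 and 197.5 at 12 h and 59.3 and 23.8 at 24 h, a change of −1.90 ± 0.24 (adjusted p = 0.00208). The 24 h signals lie near the pseudocount of 32, and the change ran from −2.38 to −1.25 over the alternatives. The 2 other kept probe sets of Kif11 changed by −1.08 and −0.81. Cep55, needed for the final cut between daughter cells, went from 711.3 and 619.4 to 159.5 and 221.5, and Hmmr, a spindle-associated protein, from 565.6 and 432.4 to 190.2 and 94.1. For each of these genes the higher 24 h array lay below the lower 12 h array, and the calls held without each array. Kif4 (−0.28, adjusted p = 0.428) and Ckap5 (−0.24, adjusted p = 0.491) were the members that did not pass the test.

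Of the genes of kinetochores, chromosome cohesion and anaphase, 22 of 25 fell, with a median of −1.38. Birc5 (survivin), a subunit of the chromosomal passenger complex, had 2240.1 and 2260.4 at 12 h and 580.4 and 618 at 24 h (−1.85 ± 0.15, adjusted p = 0.000399). Top2a, the topoisomerase that untangles sister chromatids, went from 1366 and 1832.2 to 426.7 and 486.4 (−1.73 ± 0.21, adjusted p = 0.00205). Cenpf, a kinetochore protein of late G2, went from 1115.4 and 1208.5 to 351.5 and 334.6 (−1.67 ± 0.16, adjusted p = 0.000749). Its change was −1.06 at the smallest over the alternatives, and another kept probe set of Cenpf changed by −0.45. The calls of these genes held without each array. Pttg1 (securin), the inhibitor of the protease that opens cohesin, was the 1 member of 58 with a positive change, at 5331.7 and 4915.7 at 12 h and 6185.9 and 5043.5 at 24 h (0.12, 95% interval −0.28 to 0.53, adjusted p = 0.776). Cenpk (−0.66, adjusted p = 0.0634) and Cenpm (−0.32, adjusted p = 0.397) were the others not called. Mki67, the proliferation antigen Ki-67, is in none of the lists and was looked up after its values had been seen. It fell from 826.2 and 893.8 to 251.9 and 271.1 (−1.60 ± 0.16, adjusted p = 0.000887).

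**Figure D2:**
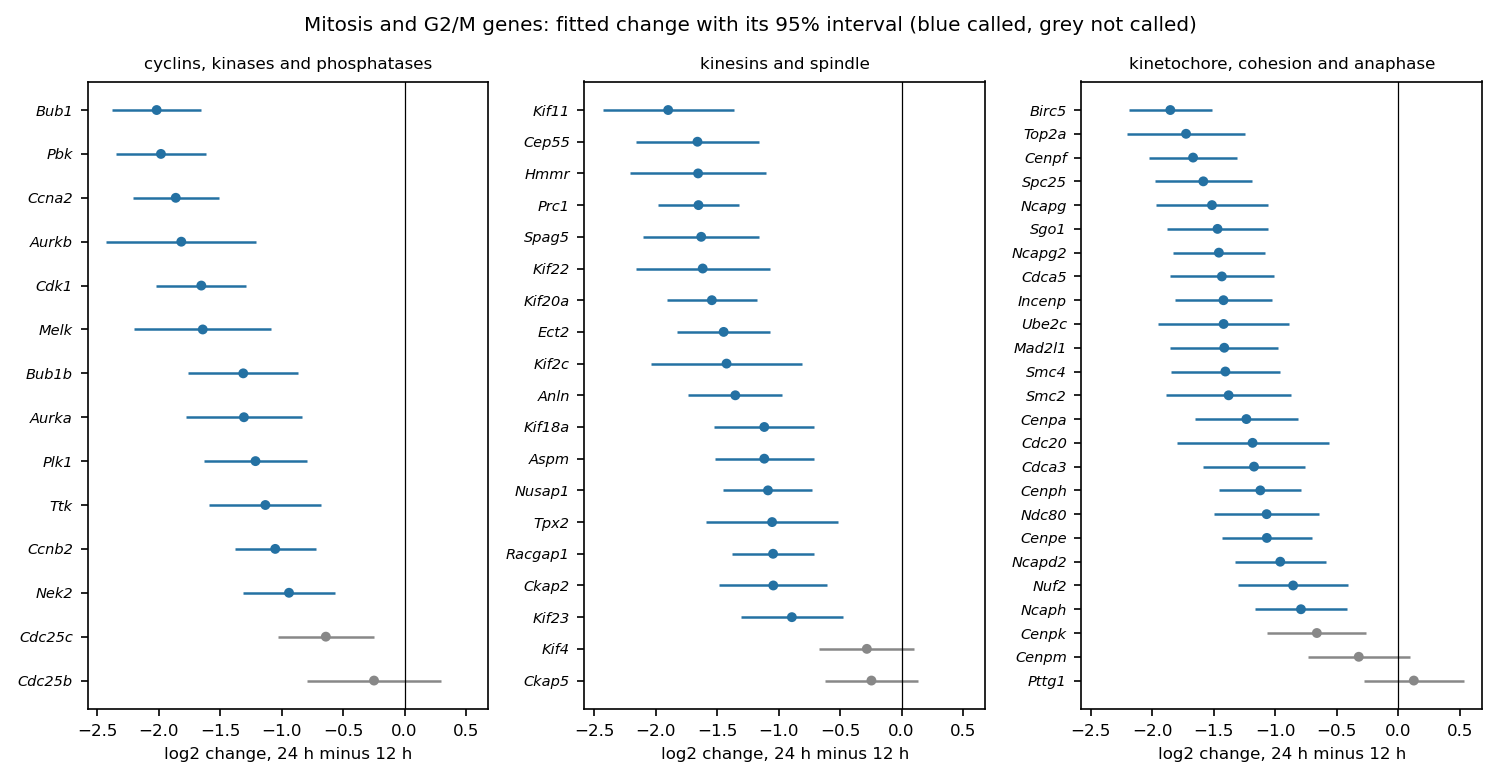
Fitted log2 change from 12 h to 24 h (points) with its 95% interval (lines) for the 58 tested mitosis and G2/M genes, in 3 panels by role. The 51 called genes (blue) lie between −2.02 (Bub1) and −0.79 (Ncaph), and the 7 that were not called (grey) lie nearer to 0.

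The RefSeq promoters of these genes are shown because most of those found hold the same short element. Promoter windows run from 250 bases before to 50 after a start site on build GRCm38.p6, and each motif was searched on both strands with overlap between motifs allowed. Shares count promoter entries, so a gene with several start sites can count more than once, and genes without an entry are left out. The CHR core, TTTGAA, was present in 35 of the 47 promoters found for the mitosis and G2/M genes that fell (74.5%), against 11.3% of the promoters of all genes tested and 17.9% of all promoters in the table. The 47 promoters belonged to 44 of the 51 genes. The stretches printed run from 25 bases before the core to the base before the start site, on the strand of the gene, with the core in capitals, which reads TTCAAA where it lies on the opposite strand.
Cdk1 (chr10:69352913-69352952, minus strand): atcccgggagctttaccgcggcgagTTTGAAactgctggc
Cdc20 (chr4:118437344-118437386, minus strand): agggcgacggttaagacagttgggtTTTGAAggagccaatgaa
Kif11 (chr19:37376338-37376381, plus strand): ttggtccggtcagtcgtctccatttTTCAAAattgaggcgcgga
Top2a (chr11:99024190-99024237, minus strand): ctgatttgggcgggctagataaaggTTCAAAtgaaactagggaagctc
Prc1 (chr7:80294421-80294475, plus strand): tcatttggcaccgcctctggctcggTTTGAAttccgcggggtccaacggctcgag
In all 5 the core lies close to the start, its last base being 10 (Cdk1), 13 (Cdc20), 14 (Kif11), 18 (Top2a) and 25 (Prc1) bases before it. The 5 genes were picked for a core upstream of the start. Their changes from 12 h to 24 h were −1.65 for Cdk1, −1.19 for Cdc20 (adjusted p = 0.0349, and not called without replicate 2 of 12 h, at 0.239, or replicate 2 of 24 h, at 0.22), −1.90 for Kif11, −1.73 for Top2a and −1.65 for Prc1. A match is a description of these letters and shows neither binding nor a cause.

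Of 45 tested genes of replication and S phase, 26 fell, 15 of them by at least 2-fold, and 0 rose, and all 45 had a negative change, with a median of −0.81. With the replicate block 34 fell. Without replicate 2 of 12 h, 7 fell; without replicate 1 of 24 h, 12; without replicate 2 of 24 h, 14; and with no filter on low values, 10. The calls of 6 held without each array.

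Of the licensing and helicase genes, which load the replicative helicase onto origins, 10 of 13 fell (median −1.06). Cdc6, the loader of the helicase, went from 139.8 and 106.5 to 15.3 and 14 (−1.73 ± 0.17, adjusted p = 0.000763). The 24 h signals are under the pseudocount, and the change ran from −2.52 to −0.96 over the alternatives. The helicase subunit Mcm5 went from 346.4 and 403.6 to 108.8 and 123.2 (−1.46 ± 0.16, adjusted p = 0.00125) and Mcm6 from 1121.3 and 1242.2 to 500.6 and 358.2 (−1.41 ± 0.19, adjusted p = 0.00256). Mcm2, Mcm3, Mcm4 and Mcm7 were also called, at −0.76, −1.06, −1.22 and −1.02, so all 6 subunits of the ring fell. The calls of these 4 were lost with single arrays left out, Mcm2 without any 1 of the 4 (up to 0.168), Mcm3 without each except replicate 2 of 12 h (up to 0.105), Mcm4 without replicate 2 of either time (up to 0.0724), and Mcm7 without replicate 2 of 12 h or replicate 1 of 24 h (up to 0.0814).

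Of the polymerase and replication fork genes, 11 of 25 fell (median −0.66). Pole, the catalytic subunit of the leading strand polymerase, went from 637.2 and 781 to 228.7 and 277 (−1.38 ± 0.17, adjusted p = 0.00176), and Rpa2, of the complex that coats single-stranded DNA, from 226.8 and 215.6 to 85.5 and 78.8 (adjusted p = 0.00369). The sliding clamp Pcna fell by 0.82 on the log2 scale (adjusted p = 0.0186, and 0.0564 to 0.129 with single arrays left out). Pole2, a second subunit of the leading strand polymerase, went from 424.8 and 450.6 to 146 and 261.9, and its call (adjusted p = 0.0218) was lost without either 12 h array or without replicate 1 of 24 h, with an adjusted p of up to 0.129. Its change ran from −1.40 to −0.68 over the alternatives. Of the enzymes that supply nucleotides, 5 of 7 fell (median −1.08). Rrm2 and Rrm1, the subunits of ribonucleotide reductase, went from 1556.2 and 2182.2 to 661.7 and 715, and from 1103.3 and 1045.3 to 405.6 and 511.6. The call of Rrm2 was lost without replicate 2 of 12 h (adjusted p = 0.0525), and that of Rrm1 without the same array (0.0526) or replicate 1 of 24 h (0.0644). Dut, the dUTPase, fell by 1.15 on the log2 scale. The calls of Cdc6, Mcm5, Mcm6, Pole, Rpa2 and Dut held without each array.

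The E2F sites TTCCCGC and TTGGCGC, counted as 1 motif, were present in 13 of 25 promoters of the replication genes that fell (52%), against 12.9% for all genes tested, 6.81% of all promoters and 21.3% for the mitosis genes that fell. The 25 promoters belonged to 23 of the 26 genes. The CHR core was present in 16% of the replication promoters. A CCAAT box, CCAAT, was present in 68% of the replication promoters and 70.2% of the mitosis promoters, against 37.65% for all genes tested and 37.4% of all promoters. The stretches printed for 2 licensing genes hold an E2F site in capitals with 25 bases on either side, its last base being 132 (Cdc6) and 40 (Mcm6) bases before the start.
Cdc6 (chr11:98907988-98908044, plus strand): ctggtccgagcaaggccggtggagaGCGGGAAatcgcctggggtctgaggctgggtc
Mcm6 (chr1:128359720-128359776, minus strand): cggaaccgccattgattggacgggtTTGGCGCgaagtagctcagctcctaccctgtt
The Cdc6 site lies on the opposite strand and so reads GCGGGAA.

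**Figure D3:**
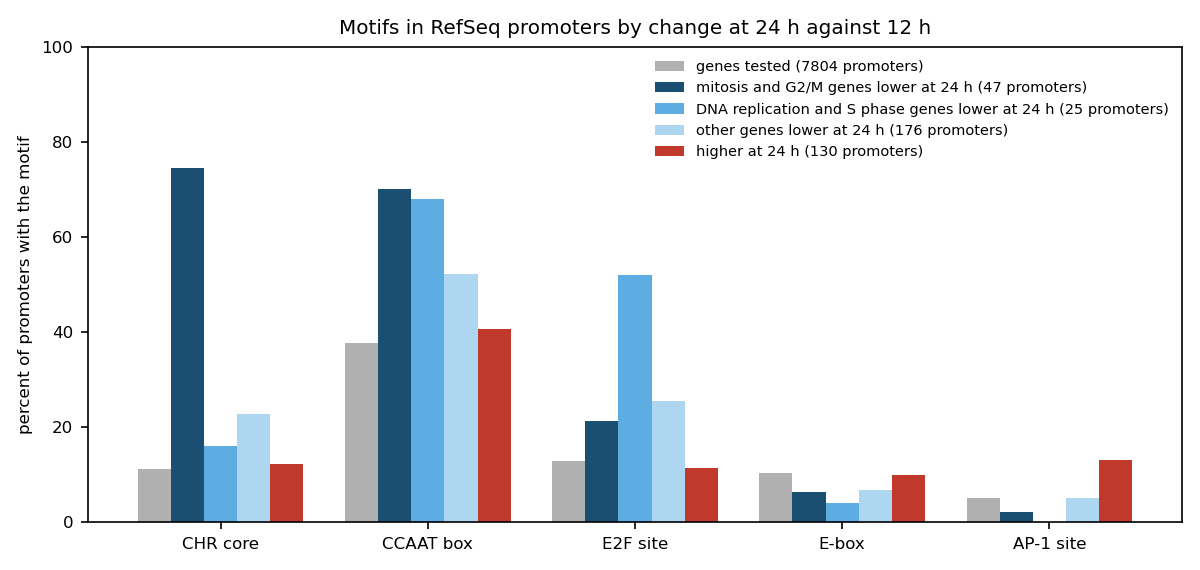
Percent of RefSeq promoters (250 bases before to 50 after the start) that hold each motif, for all genes tested (grey), for mitosis, replication and other genes that fell (blues) and for genes that rose (red). The CHR core stands at 74.5% in the mitosis genes that fell against 11.3% in all genes tested, the E2F site at 52% in the replication genes, and the E-box, CACGTG, at 6.38% and 4% in those groups against 10.5%.

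Around the cell cycle, repair and chromatin genes changed in smaller numbers. Of 25 tested genes of DNA repair and checkpoints, 5 fell and 1 rose. Brca1, which acts in recombination repair, went from 433.1 and 351.6 to 155.2 and 103.5 (−1.41 ± 0.20, adjusted p = 0.00355), a call that held without each array. Xrcc1 and Exo1, of single-strand break and mismatch repair, fell by 1.16 and 1.05 on the log2 scale, with a change of Exo1 from −1.29 to −0.70 over the alternatives. Another kept probe set of Exo1 changed by −0.50. The rise was that of Trp53bp1, a mediator of the double-strand break response, from 681.9 and 575 to 1061.3 and 1188.3 (0.81 ± 0.19, adjusted p = 0.0359). The calls of Xrcc1, Exo1 and Trp53bp1 were each lost without some of the arrays, Trp53bp1 without any 1 of the 4 (adjusted p up to 0.224), Xrcc1 without each except replicate 1 of 12 h (up to 0.0906), and Exo1 without each except replicate 1 of 24 h (up to 0.063).

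Among 35 tested G1 cyclins, CDK inhibitors and E2F family genes, 3 fell and 1 rose. Ccnd1, the G1 cyclin D1, went from 1405.4 and 1524.2 to 846.5 and 785.3 (−0.82 ± 0.15, adjusted p = 0.0132). E2f8, a repressor of the E2F family, and Rbl1, the pocket protein p107, fell by 0.77 and 0.61 on the log2 scale. Cdkn1c, the imprinted CDK inhibitor p57, rose from 146.4 and 133.9 to 389 and 276.8 (1.07 ± 0.26, adjusted p = 0.0392). All 4 calls were lost when any 1 of the 4 arrays was left out, with adjusted p-values of up to 0.105 for Ccnd1, 0.122 for E2f8, 0.225 for Rbl1 and 0.224 for Cdkn1c. Cdkn1a, the gene of the CDK inhibitor p21, was at 3898 and 2908.2 and then at 3677.3 and 4221.1, with overlapping arrays (0.22, 95% interval −0.17 to 0.62, adjusted p = 0.561).

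Of 46 chromatin genes, 6 fell and 0 rose. The largest fall of all called genes was that of Hmgb2, a high mobility group protein that bends DNA. It had 392.5 and 449.1 at 12 h and 60.9 and 96.5 at 24 h (−2.05 ± 0.18, adjusted p = 0.000437). H2ax, the histone variant that marks damaged DNA, went from 1706.3 and 1604.6 to 550.5 and 525.3 (−1.57 ± 0.16, adjusted p = 0.000763). Cbx5, the heterochromatin protein HP1 alpha, went from 544.3 and 519.2 to 245.1 and 223.5 (−1.08 ± 0.16, and −0.68 at the smallest over the alternatives). The calls of Hmgb2, H2ax and Cbx5 held without each array. Those of Asf1b, a histone chaperone (−1.19), Hmgb3 (−0.92) and the arginine methyltransferase Prmt1 (−0.90) did not, with adjusted p-values of up to 0.0658 and 0.14 for Asf1b and Hmgb3, which were lost without replicate 2 of 12 h or of 24 h (Hmgb3 also without replicate 1 of 12 h), and 0.132 for Prmt1, lost without replicate 2 of 12 h or replicate 1 of 24 h. None of the 9 tested histone deacetylase genes, whose products butyrate inhibits, was called. Over all genes 5.4% were called, so no call among 9 genes is near the background. Hdac1 was at 1895.6 and 1683.1 and then at 1845.1 and 1809.7 (0.03, 95% interval −0.36 to 0.43).

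**Figure D4:**
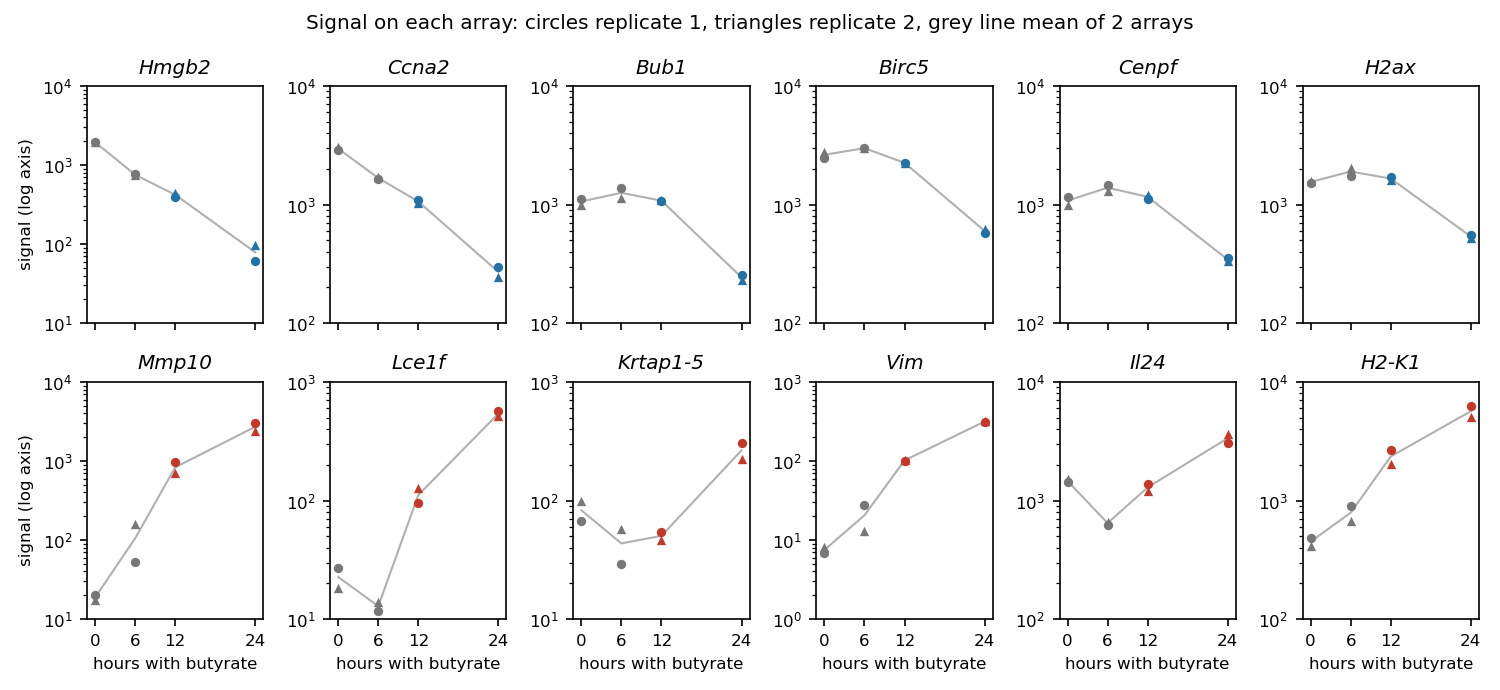
Signal on each of the 8 arrays (log axis) against hours with butyrate for 6 genes that fell (upper row) and 6 that rose (lower row) between 12 h and 24 h. Circles are replicate 1, triangles replicate 2, the grey line joins the means of 2 arrays, and colour marks the arrays compared. Bub1, Birc5, Cenpf and H2ax changed little until 12 h, Hmgb2 and Ccna2 were lower at 6 h than at 0 h, and Krtap1-5 and Il24 were at or below their 0 h signals at 12 h.

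Genes of RNA processing and nuclear transport fell in part. Of 77 tested, 15 fell and 0 rose (median −0.34), 6 of 43 splicing factors and 9 of 34 nuclear pore and karyopherin genes. The RNA-binding protein Hnrnpa2b1 went from 3136.2 and 2622.9 to 1242 and 1209.2 (−1.21 ± 0.18, adjusted p = 0.00432). Its 3 other kept probe sets changed by −1.12 to −0.30. Nup85, of the nuclear pore scaffold, went from 642.8 and 640.9 to 191.3 and 274.1 (−1.37 ± 0.18, adjusted p = 0.0026). The calls of these genes held without each array. Sfpq and Tra2b, splicing factors, fell by 0.998 and 0.87 on the log2 scale, and Nup107, of the same scaffold, and Ranbp1, a cofactor of the Ran GTPase, each by 0.96. Their calls were lost when single arrays were left out, with an adjusted p of up to 0.155, 0.0685, 0.0934 and 0.082 in that order. Without replicate 1 of 12 h, 6 of the 77 fell, without replicate 2 of 12 h 2, without either array of 24 h 5, and with no filter 2.

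Some genes that build ribosomes fell, and almost none of the genes of the ribosome itself were called, where 3.58% of all genes fell and 1.81% rose. A difference between these groups was not tested. Of 66 ribosome biogenesis genes 6 fell and 0 rose (median −0.22), and 11 fell with the replicate block, by which 5.14% of all genes fell. A negative change was found for 55 of the 66, against 3576 of all 7340 genes. The box C/D protein Nop56 led them, from 1114.9 and 1249.4 to 503.9 and 655.4 (−0.998 ± 0.17, adjusted p = 0.00851), with a call lost without replicate 2 of 12 h (0.0767) or replicate 1 of 24 h (0.0694). Rrp9 and Utp6, of the small subunit processome, fell by 0.93 and 0.85. None of the 6 calls held without each array, and 0 were left without replicate 2 of 12 h, without replicate 1 of 24 h or with no filter. The count was 3 without either array of 0 h or from the arrays of 12 h and 24 h alone, and 2 without replicate 1 of 12 h or replicate 2 of 24 h. Of 41 cytosolic ribosomal protein genes, 0 were called in either direction, with a median of 0.01 and a range of −0.46 to 0.44. Of 73 mitochondrial ribosomal protein genes 1 fell, Mrpl50 (−0.82, adjusted p = 0.0241, up to 0.168 with single arrays left out).

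Of 22 genes of polyamine and one-carbon metabolism, 3 fell and 0 rose, and 19 had a negative change (median −0.43). The cytosolic and mitochondrial serine hydroxymethyltransferases Shmt1 and Shmt2 went from 348.5 and 399.4 to 184.9 and 180.5, and from 943.4 and 1016.7 to 539.2 and 554.9. Ahcy, which clears the by-product of methylation reactions, fell by 0.70 on the log2 scale. Adjusted p-values were 0.0132, 0.0245 and 0.0245, and up to 0.11, 0.15 and 0.146 with single arrays left out.

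The rises were fewer and more scattered over lists. Of the 133, 32 were above the median used as the filter on both 24 h arrays and on no other array. These passed only through their 24 h arrays and so had to be higher there. The count of rises is no measure of how many genes of a list were switched on. Afp, Plagl1 and Dnm1, with 1 array of 12 h also above that median, needed a 24 h array to pass too and are outside the 32. Other such genes were not counted. Among the 32 were Lce1f, Krtap1-5, Vim, Gstk1, Gstm7, Lcn2, Ifitm3, Slpi and Cnn1. A call of theirs that held without each array does not test this choice by the filter. With no filter, Lce1f, Krtap1-5, Vim and Lcn2 were called (limma adjusted p of 0.0118 to 0.034). Gstk1, Gstm7, Ifitm3, Slpi and Cnn1 then were not (0.0549 to 0.0803). Of those of the 12 largest rises that are outside the 32, Il24 was called with no filter (0.0239). Lce1h, Afp, Mmp10, Dnm1 and Plagl1 were not (0.0588 to 0.0924). Among the largest rises were 2 genes of the cornified envelope, the protein shell of keratinised epithelium. Lce1h had 157.2 and 44.5 at 12 h and 715.1 and 566.5 at 24 h (2.47 ± 0.45, adjusted p = 0.00991). Lce1f had 95 and 127.5 at 12 h and 565.7 and 517.1 at 24 h (2.01 ± 0.17, adjusted p = 0.000399). The 12 h arrays of Lce1h lay far apart and those of Lce1f close together. The call of Lce1h was lost without any array except replicate 1 of 12 h (adjusted p up to 0.0764), and that of Lce1f held without each.

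Krtap1-5, a keratin-associated protein of hair, had 54.4 and 46.3 at 12 h and 306.2 and 223.9 at 24 h (1.84 ± 0.23, adjusted p = 0.00205), a call that held without each array. The small proline-rich envelope precursors Sprr1b and Sprr2h rose by 1.07 and 0.74 on the log2 scale (adjusted p = 0.0473 and 0.0479). Sprr1b was not called without any 1 of the 4 arrays (up to 0.262), nor Sprr2h except without replicate 1 of 12 h (up to 0.307). Vim, the intermediate filament protein of mesenchymal and many cultured cells, rose in steps. It had 6.8 and 8.2 at 0 h, 100.7 and 102.6 at 12 h, and 314.3 and 317.9 at 24 h (1.38 ± 0.17, adjusted p = 0.00205, a call that held without each array). Of the 70 tested genes of the epithelial differentiation and junction list, which does not hold Lce1h, Lce1f or Krtap1-5, 3 rose (Vim, Sprr1b and Sprr2h) and 1 fell, the epithelial ETS factor Ehf, from 359.9 and 276.1 to 142.3 and 134.3 (−1.03 ± 0.17, adjusted p = 0.00792, lost without replicate 1 of 12 h or replicate 2 of 24 h, up to 0.0623). None of 10 desmosome, 24 junction and 9 absorptive cell product genes was called. Over all genes 1.81% rose and 3.58% fell, and the small counts of this list are given as a description only.

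Krt20, a keratin of the mature colonic surface, was at 8085.8 and 8046.4 at 12 h and 12430 and 18156.3 at 24 h. Both 24 h arrays were higher, but they differed from each other, and the change of 0.89 ± 0.24 did not pass the test (adjusted p = 0.0574), while it did with the replicate block (adjusted p = 0.0135). The tight junction gene Cldn4, named after its values were seen, was at 9014.3 and 9514.7 and then at 13564 and 14561.6 (0.60, adjusted p = 0.0574, and 0.0263 with the block).

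Proteases and their inhibitors were among the rises. Of 64 genes of matrix, proteases and adhesion, 5 rose and 2 fell. Mmp10, stromelysin-2, had 960.3 and 703.1 at 12 h and 3034.4 and 2395.8 at 24 h (1.68 ± 0.32, adjusted p = 0.0133), a call lost without any array except replicate 1 of 12 h (up to 0.109). Mmp13, a collagenase, went from 319.5 and 307.9 to 592.3 and 616 (0.88 ± 0.20, adjusted p = 0.032, up to 0.16 with single arrays left out). Timp1, an inhibitor of these enzymes, went from 1139.1 and 1265.9 to 2499.5 and 2925.1 (1.15 ± 0.16, adjusted p = 0.00341, a call that held without each array). Slpi, which inhibits leukocyte serine proteases, and Lamb3, a laminin chain, rose by 0.88 and 0.77 on the log2 scale (adjusted p = 0.0115 and 0.0289, up to 0.103 and 0.218). The falls were those of the granzyme inhibitor Serpinb9 (−1.08) and the serine protease Prss22 (−0.87), with adjusted p-values of 0.00804 and 0.0218, and up to 0.0756 and 0.161 with single arrays left out.

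The promoters of both metalloproteinases hold an AP-1 site, TGANTCA, before the start. It was present in 17 of the 130 promoters found for genes that rose (13.1%), in 4.03% of those of genes that fell, in 5.04% for all genes tested and in 7.81% of all promoters. The 130 promoters belonged to 104 of the 133 genes. The stretches show the site in capitals with 25 bases on either side, its last base being 57 (Mmp10) and 29 (Mmp13) bases before the start.
Mmp10 (chr9:7502254-7502310, plus strand): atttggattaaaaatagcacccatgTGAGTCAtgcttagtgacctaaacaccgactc
Mmp13 (chr9:7272454-7272510, plus strand): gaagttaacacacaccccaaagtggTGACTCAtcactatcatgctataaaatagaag
Of the 29 tested immediate early and MAP kinase feedback genes, the group that holds the AP-1 subunits, 1 rose and 0 fell. It was Junb, from 1175.5 and 1449.5 to 1982.6 and 2524 (0.76 ± 0.18, adjusted p = 0.0359, up to 0.22 with single arrays left out). Fos was at 2424.6 and 1778.2 and then at 1905.9 and 1569.9 (−0.26, 95% interval −0.75 to 0.23, adjusted p = 0.588), with overlapping arrays.

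Il24, a cytokine of the IL-10 family, went from 1386.5 and 1196 at 12 h to 3083.6 and 3627.8 at 24 h (1.36 ± 0.16, adjusted p = 0.00173), and Lcn2, an iron-siderophore binding protein of innate defence, from 68.5 and 89.4 to 255.6 and 273.8 (1.42 ± 0.20, adjusted p = 0.00283). Both calls held without each array. Of 45 antigen presentation and interferon genes, 4 rose and 0 fell. H2-K1, a heavy chain of MHC class I, had 2677.9 and 2024.6 at 12 h and 6276 and 5062.8 at 24 h (1.26 ± 0.21, adjusted p = 0.00707), a call lost without replicate 2 of 12 h (0.0666) or replicate 1 of 24 h (0.0595). The antiviral genes Ifitm3 and Oas1a rose by 0.91 and 0.74 on the log2 scale and the chemokine Ccl20 by 0.97, with adjusted p-values of 0.00859, 0.0477 and 0.0133, and up to 0.0665, 0.228 and 0.0858 with single arrays left out. Of the 7 tested MHC class I and loading genes H2-K1 was the 1 called.

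Of 38 genes of glycolysis and hypoxia, 5 rose and 0 fell. Ndrg1, a hypoxia-responsive gene, had 3408.1 and 3169.6 at 12 h and 7198.4 and 7162.8 at 24 h (1.12 ± 0.19, adjusted p = 0.00859), a call lost without any array except replicate 1 of 12 h (up to 0.0701). Pfkfb3, which makes the activator of phosphofructokinase, went from 283.9 and 266.9 to 541.2 and 577.1 (0.94 ± 0.16, and 0.57 at the smallest over the alternatives). Another kept probe set of Pfkfb3 changed by 0.19. The aldolase Aldoc, the creatine kinase Ckb and the phosphofructokinase Pfkp rose by 0.83, 0.69 and 0.65. None of the 5 calls held without each array: 2 were left without replicate 1 of 12 h, 1 without replicate 1 of 24 h, and 0 without replicate 2 of either time. The count was 2 at a pseudocount of 8, 1 with no filter, and 3 with arrays centred on their median, without either array of 0 h, or from the arrays of 12 h and 24 h alone.

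Of 79 genes of lysosomes and autophagy, 66 had a positive change, against 3764 of all 7340 genes, with a median of 0.24 on the log2 scale. Of the 79, 5 rose, against 1.81% of all genes, and 0 fell (8 rose with the replicate block), and 1 of the 5, Hexa, had passed the filter only through its 24 h arrays. Cd68, a lysosomal membrane glycoprotein, went from 477.3 and 492.2 to 1040.8 and 1119.4 (1.10 ± 0.16, adjusted p = 0.00341), and that call held without each array. The lysosomal hydrolases Hexa and Arsa rose by 1.0 and 0.66, the proton pump subunit Atp6v0d1 by 0.68 and the autophagosome protein Map1lc3a by 0.81, with adjusted p-values of 0.0246, 0.0316, 0.03 and 0.0183. These 4 calls were lost when single arrays were left out, and of the list's 5 calls 1 or 2 were left without any 1 of the 4 arrays, 3 without either array of 0 h, and 1 with no filter. Cd68 is also a marker of macrophages. The summed signal of the 8 immune markers was 681.3 and 734.8 at 12 h and 1339.7 and 1353.7 at 24 h, most of it that of Cd68 itself, with the other 7 below the median of all signals on all 4 arrays. Their part in the result was not tested.

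Of 16 tested genes of a neuronal list, 4 rose and 0 fell, and 15 had a positive change (median 0.49). Of the 16, 3 were above the median used as the filter on their 24 h arrays alone (Bex4, Kif1a and Eno2) and so had to be higher there. The count and median are given as a description only. The adhesion molecule Ncam1 went from 624.1 and 581.5 to 1126.6 and 1219.6 (0.92 ± 0.16, and 0.60 at the smallest over the alternatives) and the vesicle motor Kif1a from 79.3 and 140.4 to 221.7 and 272.3 (1.0 ± 0.21). The 2 other kept probe sets of Ncam1 changed by 0.40 and 0.47. Bex4 and the ubiquitin hydrolase Uchl1 rose by 1.07 and 0.69. Counts of called members were 2 of 12 tested when a gene had to pass the filter on 4 arrays, 0 of 44 with no filter, and 0 to 2 when 1 of the 4 arrays was left out. Other genes best known from nerve cells stood among the largest rises, namely Dnm1, a dynamin of synaptic vesicle recycling, from 168.2 and 127.3 to 490.9 and 420.9, and Nos1, neuronal nitric oxide synthase, from 66.9 and 71.2 to 242.9 and 216.5, which had also passed the filter only through its 24 h arrays. The adjusted p was 0.00173 for Nos1 and 0.00859 for Dnm1. The call of Nos1 held without each array, in fits that did not repeat the filter. With no filter Nos1 was called (adjusted p = 0.0239) and Dnm1 was not (0.0644). The call of Dnm1 was also lost without replicate 2 of 12 h or replicate 1 of 24 h.

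Other large rises were those of Afp, Plagl1 and Gstk1. Afp, alpha-fetoprotein of fetal liver, had 146.4 and 64.6 at 12 h and 405.9 and 386.6 at 24 h (1.71 ± 0.28, adjusted p = 0.00748, lost without replicate 2 of 12 h at 0.0526 or replicate 1 of 24 h). Plagl1, an imprinted zinc finger gene, went from 254.7 and 136.8 to 522 and 532.6 (1.35 ± 0.25, adjusted p = 0.0124, lost without any array except replicate 1 of 12 h, up to 0.0889). Gstk1, a glutathione transferase of mitochondria and peroxisomes, had 61.2 and 3.8 at 12 h and 206 and 201.1 at 24 h (2.03 ± 0.35, adjusted p = 0.00859). Its 12 h arrays are low and unlike, the change ran from 1.23 to 2.89 over the alternatives, and the call was lost without either 24 h array (up to 0.058).

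**Figure D5:**
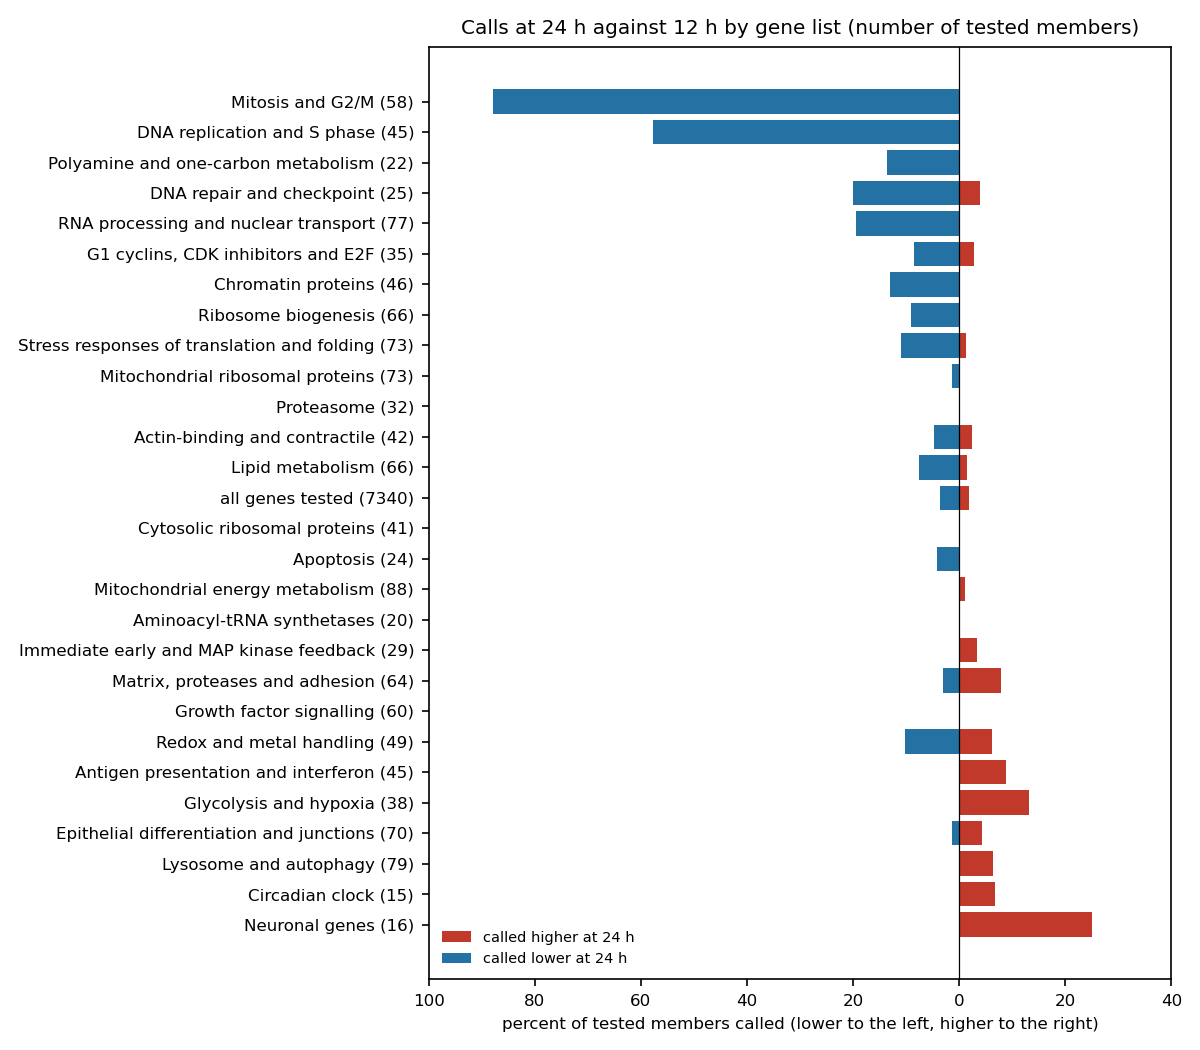
Share of the tested members of each gene list that was called lower (blue, to the left) or higher (red, to the right) between 12 h and 24 h, with the number of tested members in brackets and the lists ordered by their median change. The mitosis list stands at 51 of 58 lower and the replication list at 26 of 45, the neuronal list at 4 of 16 higher, and the row of all genes tested shows the background of 3.58% and 1.81%.

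Of 73 genes of translational and folding stress, 8 fell and 1 rose, the single rise being near the share of all genes that rose (1.81%, against 3.58% that fell). The ER chaperones Hsp90b1 (from 2404 and 2438.1 to 1271.1 and 1175.7), Pdia6 and Dnajb11 fell by 0.97, 0.78 and 0.77 on the log2 scale, and the cytosolic Hspa14, Dnajb1 and Cryab by 0.90, 0.69 and 0.64. The serine enzyme Shmt2 and the amino acid carrier Slc7a5, targets of the integrated stress response, fell by 0.80 and 0.79. The small heat shock protein Hspb1 rose from 1557.2 and 1712.7 to 3091.8 and 2441.8 (0.74 ± 0.17, adjusted p = 0.0326). Of these 9 calls 0 held without each array, that of Hsp90b1 (adjusted p = 0.00519) being lost without replicate 2 of 12 h alone (0.0509). Ddit3, the factor CHOP, was at 3168 and 3939.5 and then at 4392.9 and 5523.4 (0.48, 95% interval −0.02 to 0.97, adjusted p = 0.284).

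Of 49 redox and metal genes, 5 fell and 3 rose. Gsta3, a glutathione transferase, went from 601.7 and 682.3 to 212.9 and 203 (−1.49 ± 0.18, adjusted p = 0.00176), and its call held without each array. Gclm and Gclc, the subunits of the enzyme that limits glutathione synthesis, fell by 0.82 and 0.78 and the peroxidase Gpx1 by 0.81, while the glutathione transferases Gstk1 and Gstm7 rose by 2.03 and 0.87. The iron exporter Slc40a1 also fell. The arrestin-domain gene Arrdc4 rose by 0.97 (adjusted p = 0.0486, with 0.63 to 1.32 over the alternatives), and its relative Txnip was at 6142.3 and 7215.1 and then at 8209.4 and 9042.8, which did not pass the test (0.37, adjusted p = 0.316). With single arrays left out, the adjusted p of Gclm was up to 0.15, of Gclc 0.178, of Gpx1 0.239, of Gstm7 0.115 and of Arrdc4 0.306.

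Of 66 lipid genes, 5 fell and 1 rose, the single rise again being near the 1.81% of all genes. Fasn, fatty acid synthase, went from 3650.5 and 3745 to 1495 and 1779.2 (−1.17 ± 0.18, adjusted p = 0.00492), a call that held without each array. Acsl5, which activates fatty acids, and Hmgcs1 and Stard4, of cholesterol synthesis and transport, fell by 0.84, 0.69 and 0.63 on the log2 scale. The oxidation enzyme Eci1 fell by 0.72 while another, Acadvl, rose by 0.77. Apart from that of Fasn, these calls were lost when single arrays were left out, with adjusted p-values of up to 0.265. Of 42 actin-binding genes 2 fell and 1 rose, shares near those of all genes (3.58% and 1.81%). Tpm1, a tropomyosin, went from 2844.8 and 2395 to 1160.7 and 1064 (−1.21 ± 0.16, adjusted p = 0.0024, held without each array) and Pfn1, profilin, from 7568.7 and 9135.5 to 4704.7 and 4619.2, while Cnn1, calponin, rose from 88.5 and 77.3 to 154.7 and 211. The calls of Pfn1 and Cnn1 (adjusted p = 0.0152 and 0.0143) did not hold without each array (up to 0.135 and 0.114).

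Several lists had no or almost no called member. Over all genes 5.4% were called in either direction, so in the smaller lists such counts are near the background. Of 60 genes of TGF-beta, EGF receptor and Wnt signalling, of 32 proteasome subunits and of 20 aminoacyl-tRNA synthetases, 0 were called in either direction, while with the replicate block 2 genes of EGF receptor ligands and receptors were called higher and 1 synthetase lower. Of 88 mitochondrial energy genes 1 rose, the complex I subunit Ndufb9 (0.60, adjusted p = 0.0456), of 24 apoptosis genes 1 fell, Bok (−0.73, adjusted p = 0.0362), and of 15 clock genes 1 rose, Bhlhe40. Genes with large differences between 0 h and 6 h need not differ here. Egr1, an immediate early factor, was at 5079.3 and 4807.1 and then at 6998.2 and 6855.9 (0.48, adjusted p = 0.124). Myc had a change of 0.17 (adjusted p = 0.701), the activin antagonist Fst −0.42 (0.299), and, of genes that had not been called at 6 h, the actin-severing protein Gsn 0.70 (0.17) and the butyrate transporter gene Slc16a1 −0.04 (0.937). The chromatin protein Hmga2 was at 988.5 and 697.8 and then at 482.4 and 505.9, a change of −0.71 that was not called (adjusted p = 0.0838) but was called with the replicate block (0.037) and with a trended, robust variance model (0.046).

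Whether the second 12 h differed from the first was tested per gene as the change from 12 h to 24 h minus that from 0 h to 12 h. The contrast was positive for 245 genes (3.34% of those tested) and negative for 309 (4.21%), in all 7.55%. With the replicate block the counts were 464 and 517. Without 1 of the arrays of 0 h, 12 h or 24 h they ran from 25 to 160 and from 34 to 192, lowest without replicate 2 of 12 h, and with no filter they were 14 and 31. This contrast contains the change from 12 h to 24 h, by which the genes counted next were chosen. Its sign therefore leans the same way as that change, and the split of signs is a description only. Of the 263 genes that fell between 12 h and 24 h, 42 had a negative contrast, a fall that was larger or came after a rise. A positive one was found for 1, Ccnd1. Of the 133 that rose, 14 had a positive and 3 a negative contrast, and for most genes of either kind (116 and 220) the test called no difference between the periods.

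The mitosis genes that fell held 7 with a negative contrast: Bub1, Birc5, Cenpf, Prc1, Spag5, Spc25 and Cenph. For Bub1 the contrast was −2.04 (adjusted p = 0.00446), for Birc5 −1.64 (0.00806) and for Cenpf −1.78 (0.00727). For Bub1 and Cenpf the 12 h arrays lay within the range of the 0 h and 6 h arrays, and their fall came after 12 h. H2ax (−1.66, adjusted p = 0.0087), Brca1 (−1.57, 0.026) and Fasn (−1.24, 0.037) had a negative contrast too. Brca1 had been called higher at 6 h than at 0 h (0.72, adjusted p = 0.0365) and was lower at 12 h than at 6 h. For Hmgb2 (0.08, adjusted p = 0.914), Ccna2 (−0.41, 0.401) and Mcm6 (−0.38, 0.535) the test called no difference between the periods. Lrr1, a substrate receptor that removes the helicase from finished replication forks, had 186.1 and 160.9 at 0 h, 494.1 and 377.9 at 6 h, 245.9 and 220.8 at 12 h, and 41.7 and 57.6 at 24 h.

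Ccnd1 showed the opposite, with most of its fall before 12 h. Its signals were 11902.6 and 10680.1 at 0 h, 1405.4 and 1524.2 at 12 h, and 846.5 and 785.3 at 24 h. Some genes turned. Dpf1, a subunit of a neuronal chromatin remodelling complex, had 89.7 and 80.8 at 0 h, 335.8 and 310.7 at 12 h, and 158.1 and 141.1 at 24 h, a rise followed by a fall of 0.97 on the log2 scale (adjusted p = 0.00859). Rgs16, a brake on G protein signalling, went from 51.4 and 50.2 to 223 and 243.9 and down again to 133.6 and 92.2, a change of −0.89 that ran from −1.09 to −0.51 over the alternatives. The 2 other kept probe sets of Rgs16 changed by −0.50 and −0.13. The iron exporter Slc40a1 and the cochaperone Dnajb1 had the same shape, at 2420.2 and 2175.2 and at 1160.2 and 1173.6 at 12 h, each above its 0 h and 24 h arrays. The reverse turn was seen for Bhlhe40, a repressor of the clock, from 1537 and 1161.4 at 0 h to 455.1 and 548 at 12 h and 868.1 and 1035.5 at 24 h (0.88 ± 0.21, adjusted p = 0.0381). Il24 turned earlier, with 1419.2 and 1504.6 at 0 h, 625.3 and 664.1 at 6 h, and 1386.5 and 1196 at 12 h. The calls at 24 h against 12 h of Dpf1, Rgs16, Slc40a1, Dnajb1 and Bhlhe40 were each lost without some of the arrays, with adjusted p-values of up to 0.0685, 0.122, 0.202, 0.145 and 0.207.

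The change from 0 h to 6 h rests on 4 other arrays, so its calls can be set beside these. At 6 h, 665 genes were higher (9.06% of those tested) and 490 lower (6.68%) than at 0 h, or 15.7% in all. Without any 1 of the 4 arrays of 0 h and 6 h these counts were 299 to 403 and 160 to 286, and with no filter 272 and 158. Of the 133 genes that rose between 12 h and 24 h, 20 had also risen in the first 6 h (15% of them, and 3.01% of the early rises) and 7 had fallen. Of the 263 that fell, 25 had fallen in the first 6 h (9.51% of them, and 5.1% of the early falls) and 16 had risen. Most of the called genes, 106 of 133 and 222 of 263, were not called at 6 h against 0 h. Of the 51 mitosis genes 7 had fallen by 6 h, among them Ccna2 (−0.81, adjusted p = 0.00783).

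The 4 arrays were close in quality, though low signals were somewhat higher at 24 h. The mean of each array without its lowest and highest 2% of signals was 500.2. The medians were 143.1 and 144.4 at 12 h and 152.8 and 147.05 at 24 h. Signals under 32 made up 24.1% and 23.1% at 12 h and 21.2% and 22.5% at 24 h. With arrays centred on their median, 104 genes were called higher at 24 h and 311 lower. The 3' to 5' ratio was 0.774 to 0.878 for Gapdh and 1.01 to 1.11 for Actb. Over all probe sets the arrays correlated at 0.981 within 12 h, 0.979 within 24 h, and 0.971 to 0.977 between the times (log2 scale, across probe sets, which are not independent). As markers of the labelled cell type, all 10 epithelial genes were tested, and 0 were called, among them Krt8, Krt18 and Epcam. Of 9 colonic absorptive cell markers on the array, 7, with Car1, Car4, Slc26a3 and Vil1, were below the median of all signals (144.5) on all 4 arrays, and Krt20 and Cdx2 were above it. All goblet, enteroendocrine, Paneth, fibroblast, endothelial and erythroid markers on the array were below it too. Of the immune markers only Cd68, also a lysosomal gene, was above it, with Ptprc at 29.2 to 109.4, and of the smooth muscle markers Cnn1 rose while Acta2 and the others did not.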

How the data were processed

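The deposited values are signal intensities, 1 per probe set, in a value table of 8 Affymetrix arrays. Per the labels, total RNA was prepared from cells given butyrate and hybridised as the manufacturer instructs, with phycoerythrin as the label. The summary software and any genome build are not given in the sources used here. Of 22690 probe sets, 64 controls were left out, 20380 had 1 gene symbol in the platform annotation, 691 had several and 1555 were not listed and stayed unnamed. Probe sets above the median of all values (144.5) on at least 2 of 8 arrays were kept (12443), and each gene was taken from its probe set with the highest mean over the 8 arrays. log2(signal + 32) of all 8 arrays was fitted in limma 3.58.1 (R 4.3.3; tables with Python 3.11.15 and pandas 2.3.3), with 1 mean per time (4 residual and 6.37 prior degrees of freedom), and 24 h was set against 12 h. Changes are given on this scale, where those of low signals come out too small. Adjusted p-values (Benjamini-Hochberg, all genes tested) come from limma throughout. The number of arrays limits the precision. The fit was tested on simulated data.

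Replicate numbers come from the titles. Differences between replicates 1 and 2 correlated across genes at 0.125 to 0.382 in all 6 pairs of times, so arrays of equal number may be paired. The main fit did not use this pairing. The fit with the number as a block, which did, was an alternative. Others changed the pseudocount, filter, normalization, probe set rule, variance model and arrays used, or left out 1 array each. Cyclic loess was added after seeing the data. Members and gene lists were chosen with earlier results of these data known.

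Named genes are the 12 largest rises and falls among called genes without overlap of arrays, the 3 largest changes of each gene group with 3 or more calls, every member called the other way where these were 3 or fewer, the 5 largest differences between the periods in each direction, and 15 genes of interest. Predicted genes were passed over. Other genes named (such as Cdk1, Prc1, Cdc20, Pcna, Mcm2, Mcm3, Mcm4, Mcm7, Pttg1, Mki67, Cldn4, Uchl1, Pfkp and the members of gene groups with fewer calls or none) were chosen after their values were seen. Promoters are those of RefSeq on GRCm38.p6.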

Additional observations from a re-analysis of the deposited data

Results flagged for a closer look

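The 5 genes with the largest difference in each direction between the second and the first 12 h, among those called at 24 h against 12 h, are listed because the test of that difference passed its threshold (limma on log2(signal + 32)). The value given is the change from 12 h to 24 h minus that from 0 h to 12 h. It contains the change by which the genes were first called. It was −2.57 for Dpf1 and for Rgs16, which were higher at 12 h than at 0 h and then fell. It was −2.40 for Mmp10, −2.11 for the creatine kinase Ckb and −2.08 for Lrr1. Mmp10 and Ckb were far higher at 12 h than at 0 h and rose further by less, and Lrr1 was slightly higher at 12 h than at 0 h and then fell. It was 2.49 for Gstk1 and 2.31 for Krtap1-5, whose means were lower at 12 h than at 0 h before they rose. It was 2.25 for Bhlhe40 and 1.94 for Sprr1b, which were lower at 12 h than at 0 h and then rose, and 2.10 for Ccnd1, whose fall was smaller in the second period.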

How the results depend on the processing

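All 396 genes called at 24 h against 12 h kept their direction under every alternative in which they were tested. Much of this was fixed in advance. For no called gene did the arrays of 12 h and 24 h overlap, so leaving out 1 of them could not turn the sign. The block, the variance model and the arrays of 0 h and 6 h do not alter the change itself. Counts of calls moved more, and the cause was not tested. With no filter on low values, 29 genes were higher and 88 lower, 25 of them higher by at least 2-fold. The second against the first 12 h then gave 14 and 31 calls, and 6 h against 0 h gave 272 and 158. At an adjusted p under 0.01, 34 were higher and 123 lower. At a pseudocount of 100, 21 genes were higher and 76 lower by at least 2-fold, and with 4 of 8 arrays required above the median, 19 were higher by that much. With the replicate block, 249 genes were higher at 24 h, and the periods differed for 464 (positive) and 517 (negative). Among the named genes the block lost none of the 118 calls and added Krt20, Cldn4 and Hmga2; apart from those it changed no other named call. Without 1 array, 24 h against 12 h gave 26 to 66 higher and 77 to 143 lower genes, and 23 to 53 and 77 to 130 by at least 2-fold; the periods differed for 25 to 160 and 34 to 192; and 6 h against 0 h gave 299 to 403 and 160 to 286. Where 1 array was left out, the lone array of its time was assumed to vary like the others. Signals under 32, between 21.2% and 24.1% of each array of 12 h and 24 h, limit what can be said of low genes.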

Other observations

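Some genes best known from other tissues rose between 12 h and 24 h and were looked up after their values had been seen. Fabp4, the fatty acid binding protein of fat cells and macrophages, had 53 and 59.2 at 12 h and 155.3 and 161.6 at 24 h. Guca1a, an activator of guanylate cyclase in photoreceptors, had 90.5 and 80.4 at 12 h and 205.7 and 207.4 at 24 h. For both genes the 12 h arrays lay below the median of all signals (144.5) used as the filter, and the 24 h arrays above it. The calls held with each array left out in turn, in fits that did not repeat the filter. With no filter the adjusted p was 0.035 for Fabp4 and 0.0351 for Guca1a. Both calls were lost with a trended, robust variance model (adjusted p = 0.085 for Fabp4 and 0.0847 for Guca1a). The change of Fabp4 ran from 0.73 to 1.38 on the log2 scale over the alternatives.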
